A study of Mus musculus with 8 samples.

Results

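Alveolar type 2 cells make, store and secrete pulmonary surfactant, and 8 genes that mark this work were followed in RNA of sorted mouse lung fibroblasts. The members were picked by symbol from the count table: Sftpc, Sftpb, Sftpa1, Sftpd, Lamp3, Napsa, Abca3 and Lyz2, 8 of the 25509 genes listed. All 8 were found and all 8 passed the filter on low counts, as did 14524 genes in all. The libraries are 8 in number, 4 of CD249+ and 4 of CD249− cells, from wild-type mice of strain C57Bl6/J numbered 2, 7, 8 and 10. Cells of digested lung that were negative for the leukocyte antigen CD45, the epithelial antigen CD326 and the endothelial antigen CD31 were divided by CD249, with equal cell numbers of both fractions from each lung. The count columns are headed Ctrl for CD249− and LIF for CD249+ cells, words that the labels do not explain. No treatment of the mice appears among the sample fields used here, and their ages are not given in the sources used here. CD249 is the cell-surface peptidase encoded by Enpep. The comparison asks how the fibroblasts that carry CD249 differ from those of the same lung that do not.

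Surfactant is a film of phospholipid and protein that lowers surface tension at the air side of the alveolus. Type 2 cells assemble its lipid and its hydrophobic proteins in lamellar bodies, which are lysosome-related storage organelles, and release them by exocytosis. The gene for surfactant protein C is the usual marker of these cells and is not regarded as a fibroblast gene, and the type 2 cell carries CD326 on its surface.

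Library totals ran from 23011391 to 31906414 counts, with 15452 to 16515 genes detected per library. Enpep averaged 8.98 ± 5.62 CPM (counts relative to the scaled library total) in CD249− and 241 ± 64.8 CPM in CD249+ libraries (SD, n = 4 each), with no overlap, which is the direction of the labels. Of 8 fibroblast genes, 7 rose and 0 fell in CD249+ libraries, and their summed level ran from 5406 to 13140 CPM in CD249− and from 15430 to 27320 CPM in CD249+ libraries. The 7 became 4 without mouse 7 or without mouse 8. All 8 endothelial genes fell, from sums of 10480 to 14140 CPM to sums of 3321 to 6370 CPM. Pecam1, the gene of CD31, which the gate was to leave out, stood at 1667 ± 248 CPM in CD249− and 611 ± 239 CPM in CD249+ libraries (log2 difference -1.45, SE 0.25, adjusted p = 0.0017), and by exon length it ranked 95 to 147 among all genes in CD249− libraries. In CD249+ libraries Pecam1 ranked 238 to 636. Both fractions thus held endothelial transcripts against their gate, the CD249− libraries at the higher levels, and the part of endothelial cells in the members' values was not tested. Epcam, the gene of CD326, stood at 7.46 ± 1.62 CPM in CD249− and 7.98 ± 4.96 CPM in CD249+ libraries (log2 difference 0.10, SE 0.45, adjusted p = 0.894). Ptprc, the gene of CD45, stood at 123 ± 58.0 and 63.1 ± 22.8 CPM (log2 difference -0.96, SE 0.35, adjusted p = 0.0635). In bulk RNA, fewer cells of a type and less RNA per cell cannot be told apart. Libraries of this kind do not mark strand and carry no molecular identifiers. Intervals for shares of counts treat each count as an independent draw. They leave out copies made by amplification and differences between mice, and are too narrow to that extent. Unless another fit is named, p-values are from edgeR's quasi-likelihood test with Benjamini-Hochberg adjustment over 14524 genes, a gene is called at an adjusted p under 0.05, and fold changes are CD249+ over CD249−.

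The 4 surfactant proteins and Lamp3 rose in CD249+ libraries, by 11.3-fold to 19.1-fold in the fit, while Napsa, Abca3 and Lyz2 did not pass the test. Thus 5 of the 8 members were called higher and 0 lower, against 16.9% of all genes called higher and 13.9% called lower. The members' median log2 fold change was 3.53, and that of all genes tested was -0.02. This fit ignores the pairing by mouse. With mouse as a replicate block the rise was 6.07-fold to 7.15-fold for the 4 surfactant proteins and 19.55-fold for Lamp3. The same 5 members were higher in CD249+ cells within each of the 4 mice, a pattern found in 26.5% of all genes. Yet for none of the 8 members did the groups stay apart, whereas 17.8% of all genes had every CD249+ library above every CD249− library. For the 5 members that rose, mouse 10 had the highest level in both fractions, and the overlap came from its CD249− library, which lay above the CD249+ library of mouse 2.

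The upstream sequences of the members that moved together show what their start sites share in letters. In the RefSeq promoter table (GRCm38.p6), 5 of the 8 members matched by symbol: Sftpb, Sftpa1, Lamp3, Abca3 and Lyz2. Each was searched over the 250 bases before the start for the motif CNCTNNAG on both strands, a core recognised by the lung factor NKX2-1, and for the TATA box TATAAA on the gene strand. The 3 matched members that rose are printed 5′ to 3′ on the gene strand, with both motifs in capitals, overlapping matches run together. They are Sftpb at chr6:72304360-72304609 on the plus strand, Sftpa1 at chr14:41131538-41131787 on the plus strand and Lamp3 at chr16:19706366-19706615 on the minus strand.
Sftpb: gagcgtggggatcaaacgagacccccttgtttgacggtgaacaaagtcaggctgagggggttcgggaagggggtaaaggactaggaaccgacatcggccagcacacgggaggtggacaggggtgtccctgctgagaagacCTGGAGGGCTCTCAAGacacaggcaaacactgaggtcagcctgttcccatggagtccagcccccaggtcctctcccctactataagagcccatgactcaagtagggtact
Sftpa1: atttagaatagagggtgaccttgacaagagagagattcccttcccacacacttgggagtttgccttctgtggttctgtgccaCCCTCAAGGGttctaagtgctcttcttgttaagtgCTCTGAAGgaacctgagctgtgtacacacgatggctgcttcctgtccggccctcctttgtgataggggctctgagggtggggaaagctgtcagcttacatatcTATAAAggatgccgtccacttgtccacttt
Lamp3: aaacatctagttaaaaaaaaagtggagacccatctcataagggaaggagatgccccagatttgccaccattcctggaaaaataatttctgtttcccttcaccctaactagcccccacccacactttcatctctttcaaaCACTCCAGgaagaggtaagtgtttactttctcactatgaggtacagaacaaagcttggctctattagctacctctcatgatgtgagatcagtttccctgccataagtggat
CNCTNNAG occurred 2 times in the window of Sftpb, 3 times in that of Sftpa1 and 1 time in that of Lamp3. It also occurred 2 times each in the windows of Abca3 and Lyz2, which did not pass the test, and in 43.5% of all 32851 promoters of the same length. In Sftpb its matches are adjacent, from 110 to 95 bases before the start, and in Sftpa1 a pair overlaps from 168 to 159 bases before it. TATAAA occurred only in Sftpa1 among these 5 windows, from 30 to 25 bases before the start, and in 7.59% of all promoters. The forkhead core TGTTTNC, searched on both strands, occurred 1 time in Sftpb and 2 times in Lamp3 and in 17.8% of all promoters. The C/EBP core TTNNGNAA, also searched on both strands, occurred 1 time each in Sftpb and Lyz2 and in 36.8% of all promoters. The window of Abca3 holds 21 CpG pairs, that of Lamp3 0, and the median of all promoters is 6. These matches are letters in a window, and binding was not measured.

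Sftpc (GRCm38, chr14:70520949-70524081, minus strand) encodes surfactant protein C, a small hydrophobic peptide embedded in the lipid film. Its level was 125.6, 58.6, 125.5 and 448 CPM in the CD249− libraries of mice 2, 7, 8 and 10, and 320, 483, 781 and 7551 CPM in their CD249+ libraries. The CD249+ library of mouse 10 was 9.67 times the next highest, and its CD249− library exceeded the CD249+ library of mouse 2. The mean was 189 ± 175 CPM in CD249− and 2284 ± 3516 CPM in CD249+ libraries (SD, n = 4 each). The log2 fold change was 3.59 (SE 1.09, adjusted p = 0.0313). Within the mice the ratio of CD249+ to CD249− was 2.55, 8.25, 6.22 and 16.9.

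Sftpb (chr6:72304610-72314371, plus strand) encodes surfactant protein B, the other hydrophobic protein, needed to form lamellar bodies and to spread the film. It stood at 6.11, 4.97, 6.63 and 23.7 CPM in the CD249− libraries of mice 2, 7, 8 and 10, and at 16.8, 28.7, 45.2 and 479 CPM in the CD249+ libraries. Here too both libraries of mouse 10 lay highest, with the CD249+ one at 10.6 times the next. Sftpb rose by 3.77 on the log2 scale (SE 1.10, adjusted p = 0.0264), and within the mice by 2.74, 5.78, 6.82 and 20.2 times.

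Sftpa1 and Sftpd encode the collectins SP-A and SP-D, soluble lectins that bind microbes in the airspace. Sftpa1 (chr14:41131782-41136452, plus strand) stood at 30.4, 14.0, 42.5 and 108 CPM in the CD249− samples of mice 2, 7, 8 and 10, and at 85.0, 109, 231 and 1889 CPM in the CD249+ samples. Sftpd (chr14:41172214-41185149, minus strand) stood at 2.89, 3.68, 5.38 and 16.8 CPM in CD249− and at 8.50, 13.3, 32.8 and 274 CPM in CD249+ samples of those mice. In the CD249+ fraction both genes followed the order of Sftpb, with mouse 10 highest, then mice 8, 7 and 2. Sftpa1 rose by 3.56 on the log2 scale (SE 1.07, adjusted p = 0.0297), by between 2.79 and 17.4 times within the mice. Sftpd rose by 3.51 (SE 1.12, adjusted p = 0.0383), by between 2.94 and 16.3 times within the mice. Among the collectin genes, 4 of 7 were tested, of which 3 rose and 0 fell. The 3 became 1 without CD249− of mouse 2, 7 or 8, CD249+ of mouse 10, or mouse 7 or 8. The one that is no member here, Colec12, a scavenger receptor with a collectin domain, rose in all 4 mice, from 122 ± 17.9 to 735 ± 85.8 CPM (log2 2.59, SE 0.14, adjusted p = 3.27e-06).

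Lamp3 (chr16:19653378-19706375, minus strand) encodes a membrane glycoprotein of lamellar bodies that is also found in mature dendritic cells. It was the rarest member in CD249− cells, at 0.764, 0.175, 0.542 and 7.14 CPM in mice 2, 7, 8 and 10, or 23.01, 5.02, 13.01 and 238 estimated counts. In CD249+ cells it stood at 5.30, 8.92, 18.7 and 136 CPM. Mouse 10 was again highest in both fractions, and its CD249− library lay above the CD249+ library of mouse 2. Lamp3 had the largest fold change of the members at 4.25 on the log2 scale (SE 1.3, adjusted p = 0.0322). The ratio within the mice was 6.94, 50.9, 34.5 and 19.0, and that of mouse 7 rests on the 5.02 counts of its CD249− library. Of 9 mature dendritic cell genes, 0 rose and 1 fell (2 with the replicate block, and 2 without CD249− of mouse 2 or without that mouse), with sums of 270 to 360 CPM in CD249− and 169 to 215 CPM in CD249+ libraries. None of these dendritic cell genes was at 0 in all libraries, and their part in the Lamp3 values was not tested.

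**Figure D1:**
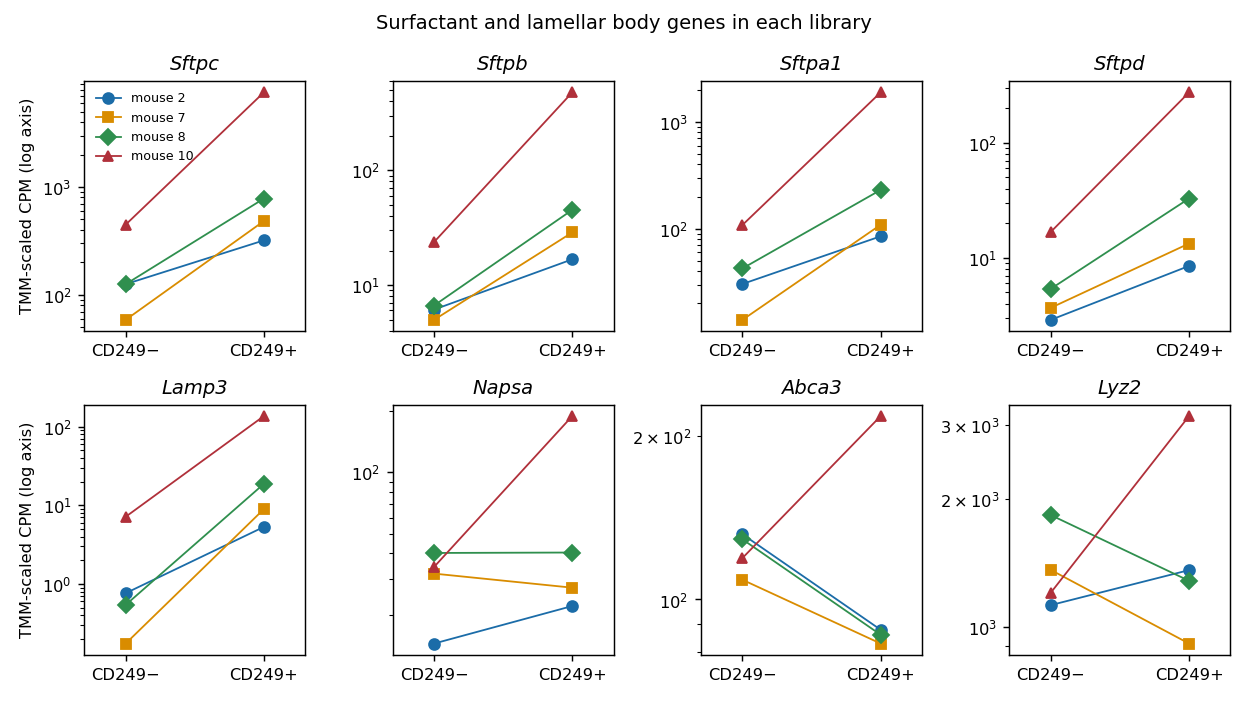
Level of each of the 8 members in each library in TMM-scaled CPM on a log axis, with CD249− on the left, CD249+ on the right and a line joining the libraries of 1 mouse. Sftpc runs from 58.6 to 7551 CPM, all 4 lines climb for the 4 surfactant proteins and Lamp3, and the lines of Abca3 climb for mouse 10 alone.

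Napsa (chr7:44572380-44586862, plus strand) encodes napsin A, an aspartic protease that trims the precursor of surfactant protein B. It stood at 14.4, 31.8, 40.2 and 34.3 CPM in the CD249− libraries of mice 2, 7, 8 and 10, and at 22.03, 27.1, 40.4 and 189 CPM in the CD249+ libraries. Apart from the CD249+ library of mouse 10, the groups covered the same range. The log2 difference was 1.21 (SE 0.65, adjusted p = 0.193), and the ratio within the mice was 1.53, 0.853, 1.005 and 5.51.

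Abca3 (chr17:24351950-24410201, plus strand) encodes the transporter that loads phospholipid into lamellar bodies. Its level was even in CD249− cells, at 132, 109, 129 and 119 CPM in mice 2, 7, 8 and 10, and it stood at 88.0, 83.0, 86.1 and 217 CPM in CD249+ cells. In mice 2, 7 and 8 the CD249+ library was the lower of the pair, with ratios of 0.667, 0.764 and 0.668, and in mouse 10 it was the higher, with a ratio of 1.82. The log2 difference over all libraries was -0.04 (SE 0.29, adjusted p = 0.932). Without the CD249+ library of mouse 10, Abca3 was called lower, at -0.51 (adjusted p = 0.00713), and without both libraries of that mouse at -0.52 (adjusted p = 0.0173). Of the 10 Abca transporters tested, Abca3 included, 7 rose and 0 fell, among them Abca1, which exports cholesterol, from 57.1 ± 6.496 to 97.5 ± 6.75 CPM (log2 0.77, SE 0.11, adjusted p = 0.000536). Abca8a and Abca9 rose by 1.302 and 1.352 on the log2 scale. Transporters called lower numbered 1 when either library of mouse 10 was left out and 2 when both were.

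Lyz2 (chr10:117277331-117282321, minus strand) encodes a lysozyme that cuts bacterial cell walls and that macrophages and neutrophils also make in quantity. It stood at 1124, 1361, 1835 and 1203 CPM in the CD249− libraries of mice 2, 7, 8 and 10, and at 1360, 912, 1283 and 3147 CPM in the CD249+ libraries. The CD249+ library was the higher in mice 2 and 10 and the lower in mice 7 and 8. The log2 difference was 0.28 (SE 0.35, adjusted p = 0.588), and -0.28 without mouse 10 (adjusted p = 0.450). Lyz1, a near-identical neighbouring copy, stood at 2.52 to 11.0 CPM in CD249− and 1.61 to 115 CPM in CD249+ libraries (log2 2.38, SE 1.09, adjusted p = 0.130). How shared reads were divided between these copies makes both values uncertain.

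**Figure D2:**
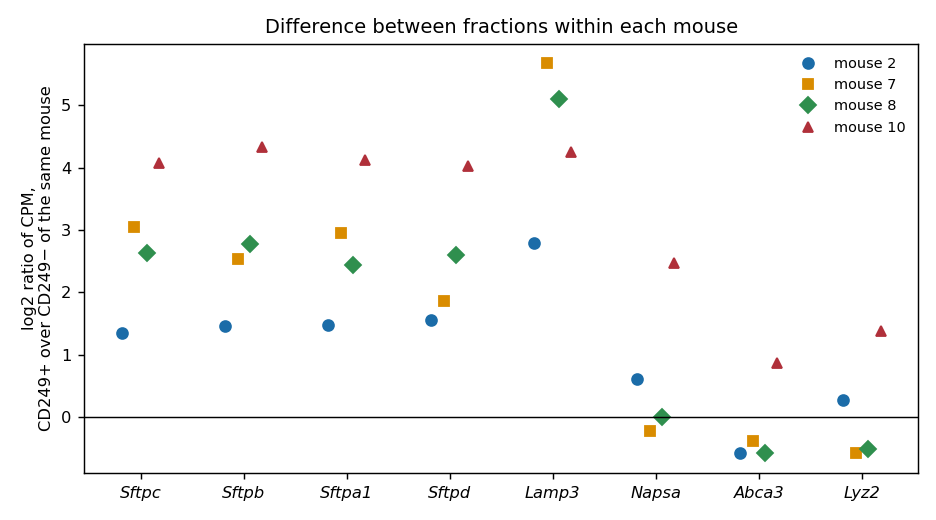
Log2 ratio of CPM in the CD249+ over the CD249− library of the same mouse, 1 point per mouse, for each member. The 4 surfactant proteins lie between 1.35 and 4.34 in every mouse with mouse 10 highest, whereas Abca3 and Lyz2 lie below 0 in mice 7 and 8.

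In fits with the fraction alone, which ignore the pairing by mouse, the calls of the 5 members rested on which libraries entered. Without any one of the CD249− libraries of mice 2, 7 and 8, all 5 lost their call, with log2 fold changes of 3.25 to 3.97 and adjusted p from 0.0655 to 0.0964. Without the CD249+ library of mouse 10 all 5 lost it too: Sftpc stood at 1.48 (adjusted p = 0.112), Sftpb at 1.54 (0.0786), Sftpa1 at 1.53 (0.101), Sftpd at 1.33 (0.176) and Lamp3 at 2.33 (0.141). Without mouse 7, or without mouse 8, all 5 were lost as well, with adjusted p from 0.0625 to 0.111. Without mouse 10, by contrast, all 5 were called, with 12.5% of 14570 genes called higher and 8.86% lower. The log2 fold change was then 2.36 for Sftpc (adjusted p = 0.00489), 2.36 for Sftpb (0.00326), 2.29 for Sftpa1 (0.0122), 2.19 for Sftpd (0.0196) and 4.46 for Lamp3 (0.00342). Abca3 was the 1 member called lower in that fit. By limma-voom on all libraries Sftpc alone was called (adjusted p = 0.036), with Sftpb at 0.172, Sftpa1 at 0.0536, Sftpd at 0.245 and Lamp3 at 0.240.

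Each lung gave both fractions, and in the fit with mouse as a replicate block the same 5 members were called higher, where 19.3% of all genes were. Sftpc rose there by 2.79 on the log2 scale (adjusted p = 0.000644), Sftpb by 2.84 (0.000866), Sftpa1 by 2.76 (0.000596), Sftpd by 2.602 (0.000967) and Lamp3 by 4.29 (4.99e-05). Napsa at 0.69 (adjusted p = 0.218), Abca3 at -0.18 (0.584) and Lyz2 at 0.13 (0.766) were not called. With the block, the 5 calls also held without each mouse in turn.

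**Figure D3:**
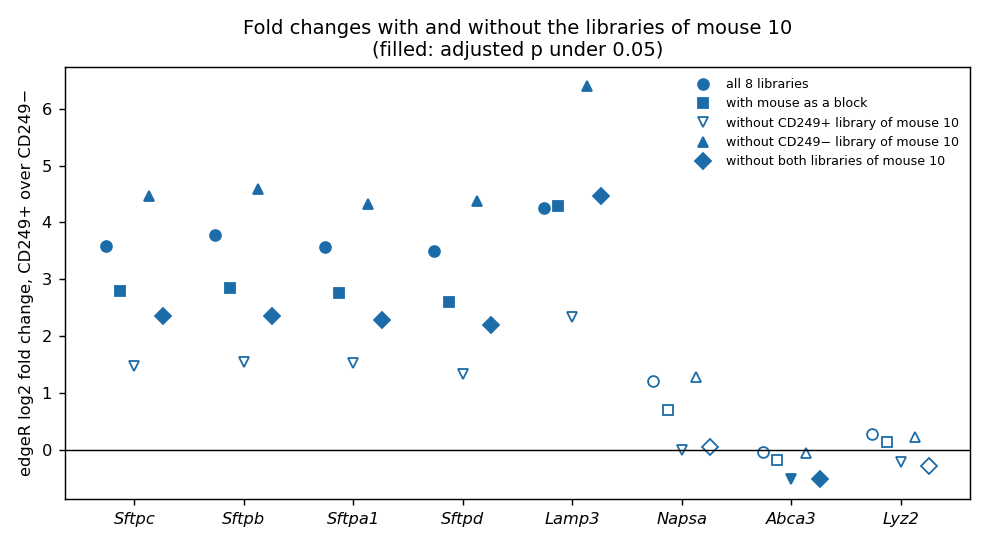
Log2 fold change of each member in edgeR with all 8 libraries, with mouse as a block, and without the CD249+, the CD249− or both libraries of mouse 10, filled where the adjusted p was under 0.05. The 5 members that rose drop to between 1.33 and 2.33 and lose the call without the CD249+ library of mouse 10, and Abca3 is filled below 0 in both fits that lack that library.

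The surfactant protein genes kept their proportions to each other within narrow bounds while their level varied widely. Sftpc itself spanned 129-fold over the 8 libraries. For every 100 Sftpc counts there were 22.5 to 33.9 counts of Sftpa1, a 1.503-fold range, and 4.86 to 8.49 counts of Sftpb, a 1.75-fold range. Sftpd stayed between 2.30 and 6.28 counts, a 2.73-fold range. Slc34a2, the phosphate carrier of type 2 cells, kept 7.80 to 12.8 counts per 100 of Sftpc, a 1.64-fold range. For each of these 4 genes the proportions in the fractions overlapped. Of other genes of type 2 cells, Chil1 had a 2.19-fold range, narrower than that of Sftpd, whereas the ranges of Cxcl15 and Ctsh were 5.84-fold and 103-fold.

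Lamp3 followed Sftpc in 5 of the libraries and not in the others. It had 1.60 to 2.39 counts per 100 Sftpc counts in the CD249+ libraries and in the CD249− library of mouse 10. In the CD249− libraries of mice 2, 7 and 8 it had 0.608, 0.3001 and 0.432 counts per 100 of Sftpc. These 3 libraries lay below the other 5 without overlap, on the 5.02 to 23.01 counts of Lamp3 that they hold.

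Napsa, Abca3 and Lyz2 did not keep a fixed proportion to Sftpc. Napsa ranged from 2.51 to 54.3 counts per 100 of Sftpc, Abca3 from 2.88 to 186 and Lyz2 from 41.7 to 2323. Each had its lowest proportion in the CD249+ library of mouse 10 and its highest in the CD249− library of mouse 7, which are the libraries with most and least Sftpc. Abca3 in CPM spanned only 2.62-fold over the 8 libraries, Lyz2 3.45-fold and Napsa 13.1-fold, against 129-fold for Sftpc. The libraries with these extremes thus follow largely from the level of Sftpc, the denominator. Epcam likewise kept no fixed proportion, with 0.191 to 12.4 counts per 100 of Sftpc, a 64.9-fold range.

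**Figure D4:**
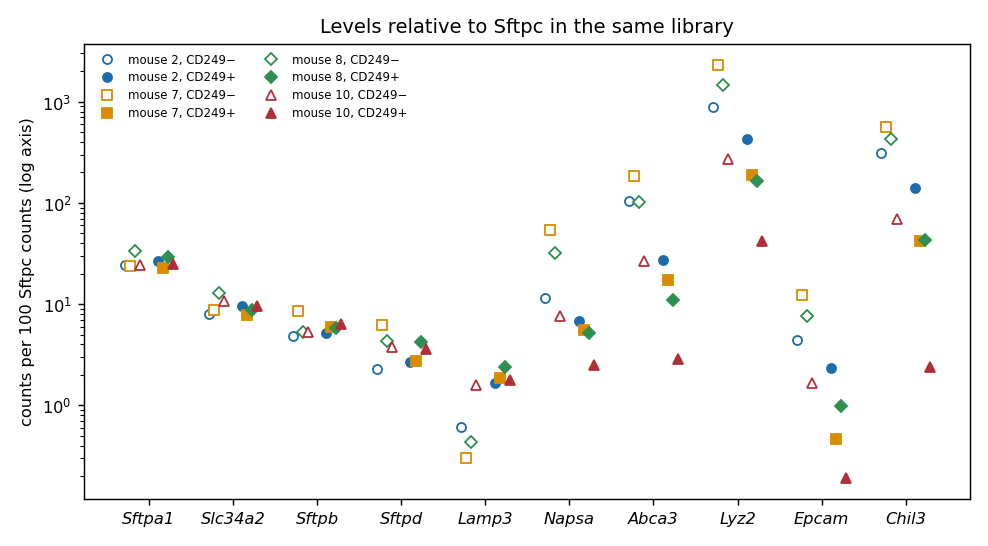
Counts of each gene per 100 counts of Sftpc in the same library on a log axis, open symbols for CD249− and filled for CD249+, 1 colour and shape per mouse. Sftpa1, Slc34a2 and Sftpb form tight rows (Sftpa1 from 22.5 to 33.9), Lamp3 separates 3 CD249− libraries from the rest, and Abca3, Lyz2, Epcam and Chil3 spread over more than 1 power of 10.

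Levels can be compared between genes after division by exon length, in length-scaled units that sum to the same total in every library. In CD249− libraries Lyz2 was highest of the members at 3758 ± 852, followed by Sftpc at 662 ± 620, Sftpa1 at 61.7 ± 53.0, Abca3 at 46.7 ± 4.39, Napsa at 40.6 ± 14.9, Sftpb at 19.0 ± 16.6, Sftpd at 10.7 ± 9.84 and Lamp3 at 2.33 ± 3.62 (SD, n = 4). Lyz2 and Sftpc did not overlap, nor did Sftpc and Sftpa1, and every lower pair of neighbours overlapped. In CD249+ libraries Sftpc stood first at 7241 ± 11030, then Lyz2 at 4263 ± 2424, Sftpa1 at 664 ± 993, Sftpb at 237 ± 370, Sftpd at 112 ± 172, Napsa at 86.5 ± 97.1, Abca3 at 42.3 ± 22.2 and Lamp3 at 41.2 ± 60.5 (SD, n = 4). This order of means rests on the CD249+ library of mouse 10: in mice 2, 7 and 8 Lyz2 stood above Sftpc, at 3687, 2245 and 3340 against 1104, 1515 and 2588. In the same 3 mice Napsa, at 29.6, 33.0 and 52.0, stood above Sftpd, at 12.5, 17.9 and 46.4. In these libraries all neighbours in the order of means overlapped except Lyz2 over Sftpa1, whose lowest and highest values were 2245 and 2149.

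On the length-scaled measure Sftpc ranked 338, 841, 327 and 60 among all genes in the CD249− libraries of mice 2, 7, 8 and 10. In the CD249+ libraries it ranked 99, 73, 38 and 2, the last place below Gsn alone. Gsn, the gelsolin gene, ranked 1 in every library. The 4 surfactant proteins together gave 0.0624% of the counts in the CD249− library of mouse 10 (95% Wilson interval 0.0615 to 0.0633) and 0.962% in its CD249+ library (0.959 to 0.966). In the libraries of the other mice they gave 0.00849% (0.00815 to 0.00884, CD249−, mouse 7) to 0.107% (0.105 to 0.108, CD249+, mouse 8).

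The genes most like the surfactant proteins depended on the measure of likeness, and by Pearson correlation 6 of the first 10 were type 2 genes. Likeness was the Pearson correlation of log2(CPM + 0.5) with the mean of Sftpc, Sftpb and Sftpa1 over 8 libraries, which share 4 mice, among 13427 genes that averaged 1 CPM or more. The first 10 were Slc34a2 (0.995), Chil1 (0.991), Rbpjl (0.990), Ank3 (0.981), Lgi3 (0.971), Muc1 (0.971), Cxcl15 (0.970), Slc1a2 (0.967), S100g (0.967) and Pi4k2b (0.966). Of these 10, 6 belong to a list of further type 2 genes and 8 were called higher in CD249+ libraries. They were picked for following Sftpc, Sftpb and Sftpa1, which rose in these libraries, so such calls follow largely from the choice. By Spearman correlation, 19 genes reached the value of the tenth place, ties included, and 2 of these 10 were among them. By Pearson correlation Sftpd stood at 0.984, Lamp3 at 0.985, Napsa at 0.812, Lyz2 at 0.593 and Abca3 at 0.462. Nkx2-1, the transcription factor gene of lung epithelium, was looked up after its values were seen and stood at 0.951. It ran from 0 to 2.19 CPM in CD249− and from 1.204 to 20.4 CPM in CD249+ libraries (log2 2.51, SE 1.16, adjusted p = 0.132).

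Among 20 further genes of type 2 cells, 18 were tested, of which 9 rose, 0 fell and 9 did not pass, with a median log2 fold change of 2.40. Slc34a2 rose from 19.9 ± 19.4 to 215 ± 340 CPM (log2 3.43, SE 1.13, adjusted p = 0.0434). Ppp1r14c, Dram1 and Lcn2 rose by 3.08, 2.24 and 2.28 on the log2 scale (adjusted p = 0.0186, 0.00407 and 0.0232). Lcn2 encodes an iron-trapping antimicrobial protein. Ctsh, a cysteine protease gene that also acts on surfactant protein precursors, and Lpcat1, which remodels surfactant phosphatidylcholine, stood at -0.14 and -0.18 (adjusted p = 0.825 and 0.637). The summed level was 324 to 522 CPM in CD249− and 317 to 558 CPM in the CD249+ libraries of mice 2, 7 and 8, but 2454 CPM in that of mouse 10. Lpcat1 was the largest part of the CD249− sums, at 135 to 186 CPM, and was higher in CD249+ in 1 mouse. Slc34a2 was higher in all 4 mice, by 3.04, 7.37, 4.27 and 15.0 times in mice 2, 7, 8 and 10. The count of 9 became 12 with the replicate block. It became 2, 1 and 2 when CD249− of mouse 2, 7 or 8 was left out. It became 5 and 2 when CD249+ of mouse 8 or 10 was left out, the last with 1 gene called lower. It was 1 without mouse 7, 2 without mouse 8 and 7 without mouse 10. It was 6 by DESeq2 and 1 by limma-voom.

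Genes for making surfactant lipid and building lamellar bodies did not move as a whole. Of 22 tested, 8 rose, 3 fell and 11 did not pass, with a median log2 fold change of 0.36. The 3 became 5 without the CD249+ library of mouse 10. Gpam, which starts glycerolipid synthesis, rose from 17.8 ± 2.99 to 96.3 ± 27.7 CPM (log2 2.43, SE 0.21, adjusted p = 3.4e-05). Chpt1, which makes phosphatidylcholine, rose from 34.0 ± 3.998 to 102 ± 16.2 CPM (log2 1.58, SE 0.14, adjusted p = 3.34e-05). Ppap2a, a lipid phosphate phosphatase, fell from 516 ± 35.1 to 249 ± 22.3 CPM (log2 -1.05, SE 0.10, adjusted p = 7.61e-05). These 3 genes, named for the smallest p-values of the list, had groups that did not overlap, which that choice favours. Over all genes tested, 17.8% had every CD249+ library above every CD249− library. For Gpam the CD249+ libraries of mice 2, 7, 8 and 10 stood at 72.1, 96.4, 81.7 and 135 CPM. All 3 are also used by cells other than type 2 cells.

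**Figure D5:**
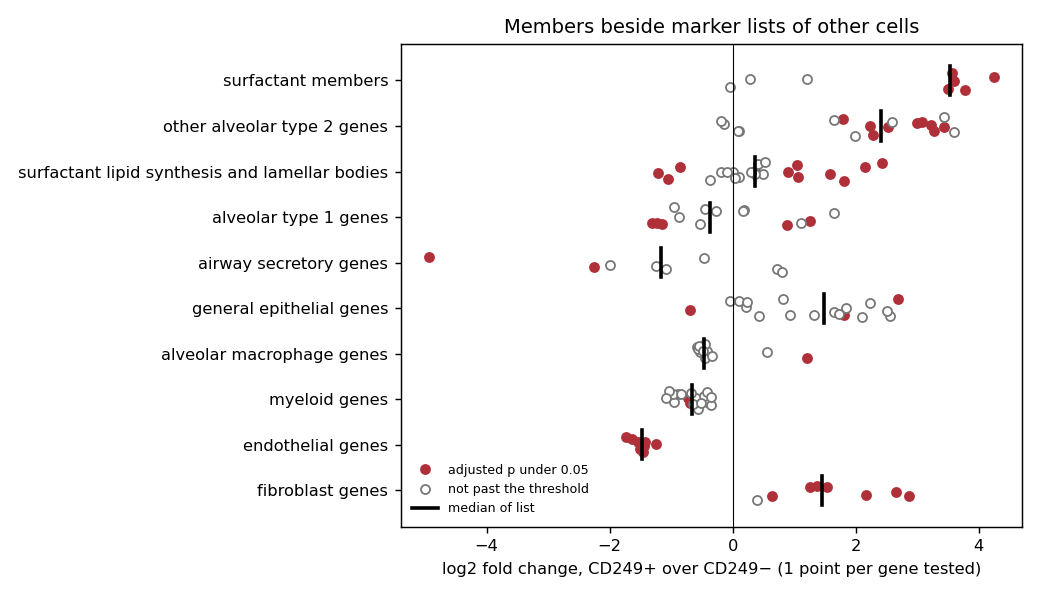
Log2 fold change of each tested gene of the members and of 9 marker lists, 1 point per gene, filled where the adjusted p was under 0.05, with a bar at the list's median. The members (median 3.53) and the further type 2 genes (2.40) have the highest medians, and the endothelial genes (-1.48) all lie left of 0.

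Markers of the other cells that the fractions could hold moved in several directions. Of 14 alveolar type 1 genes, 2 rose, 3 fell and 9 did not pass (median -0.36). With the replicate block 4 rose and 5 fell. The count that rose was 0 without CD249− of mouse 2, without CD249+ of mouse 7 or 8, or without mouse 7 or 8. It was 1 without CD249− of mouse 7 or 8, CD249+ of mouse 10, or mouse 10. Ager, the defining type 1 gene, stood at 18.7, 22.6, 7.59 and 155 CPM in CD249− and 33.7, 15.3, 17.5 and 165 CPM in CD249+ libraries of mice 2, 7, 8 and 10 (log2 0.18, SE 0.99, adjusted p = 0.912). Ager was thus high in both libraries of mouse 10 and did not follow the fraction. Hopx fell from 214 ± 17.2 to 86.3 ± 28.5 CPM (log2 -1.31, SE 0.20, adjusted p = 0.000827). Of 22 general epithelial genes, 18 were tested: 2 rose, 1 fell and 15 did not pass (median 1.49). Their sum was 77.1 to 130.4 CPM in CD249− and 102 to 124 CPM in the CD249+ libraries of mice 2, 7 and 8, and 387 CPM in that of mouse 10, with Cldn4 at 0 in all libraries. Krt19 was the largest part of the CD249− sums, at 35.2 to 55.3 CPM, and was higher in CD249+ in 0 mice. The tight junction gene Cldn3 and the protease inhibitor gene Spint2 rose by 2.68 and 1.81 (adjusted p = 0.0342 and 0.00473), and Krt19, a keratin gene, fell by 0.70 (adjusted p = 0.0383). The 2 that rose became 4 with the replicate block, and 1 without CD249− of mouse 2, 7 or 8, CD249+ of mouse 10, or mouse 7, 8 or 10. The call of Krt19 was lost without CD249− of mouse 7 or 8, CD249+ of mouse 7, 8 or 10, or mouse 7 or 8. The part of these cells in the members' values was not tested.

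Airway and ciliated cells were also looked for. Of 12 airway secretory genes, 8 were tested, of which 0 rose and 2 fell, Scgb3a1 and Bpifa1, and Scgb1a1, the club cell secretoglobin, stood at 42.3 ± 21.2 and 17.8 ± 10.8 CPM (log2 -1.25, SE 0.61, adjusted p = 0.151). Their sum was 58.4 to 184 CPM in CD249− and 40.0 to 122 CPM in CD249+ libraries, highest in mouse 10 in both. Of 12 ciliated cell genes, 4 were tested and 0 passed, and the defining gene Foxj1, at 0.239 ± 0.196 and 0.371 ± 0.272 CPM, did not reach the filter. The 2 airway genes that fell became 1 without CD249− of mouse 7 or 10, CD249+ of mouse 2 or 7, or mouse 2, 7 or 10.

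Macrophages take up surfactant and express Lyz2, so their markers were set beside the members. Of 13 alveolar macrophage genes, 12 were tested, of which 1 rose, 0 fell and 11 did not pass (median -0.47). Their sum was 481 to 852 CPM in CD249− and 314 to 712 CPM in CD249+ libraries, and the lowest of the 8 libraries was the CD249+ library of mouse 10, which had the most Sftpc and Lyz2. Chil3, their most abundant gene, stood at 391, 326, 536 and 308 CPM in CD249− and 449, 204, 334 and 181 CPM in CD249+ libraries of mice 2, 7, 8 and 10 (log2 -0.42, SE 0.29, adjusted p = 0.313). The 1 gene that rose was Fabp4, a fatty acid carrier that capillary endothelium also makes, at 1.21 (adjusted p = 0.0326). No gene of the list was called higher without CD249− of mouse 2, 8 or 10, CD249+ of mouse 7 or 8, or mouse 8 or 10. Alveolar macrophage genes called lower numbered 2 with the replicate block, 4 without CD249+ of mouse 2, 3 without mouse 2 and 7 with the block and without mouse 2. Of 20 myeloid genes, 0 rose and 3 fell (median -0.66), with sums of 638 to 1464 CPM in CD249− and 477 to 744 CPM in CD249+ libraries. The 3 became 8 with the replicate block, 12 without CD249− of mouse 2 or without that mouse, 15 with the block and without mouse 2, and 5 without CD249+ of mouse 2. They became 0 without CD249− of mouse 7 or 8, CD249+ of mouse 7 or 10, or mouse 7, 8 or 10, and 1 without CD249− of mouse 10. The part of macrophages in the Lyz2 values was not tested.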

How the data were processed

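RNA of both sorted fractions was reverse transcribed from oligo(dT) with the SMART-Seq V4 kit, made into libraries with Nextera XT and read as single reads of 75 bp, per the labels' protocols. The authors deposited a table of expected counts, without normalization, in which 12.0% of the gene values are fractional. Tools listed in the submitters' processing notes, with no role for any, are RSEM 1.2.28, STAR 2.6.1, bcl2fastq 2.20, R 3.6.3 and DESeq2 1.26.0. The build in those notes is human while the genes are mouse Ensembl genes, and no source used here gives the build used for counting. The 92 spike-in entries are 0 and were left out.

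Counts were rounded to whole numbers, filtered by edgeR's filterByExpr with the fraction as group (14524 of 18572 genes with any count) and scaled by TMM. The quasi-likelihood F test of edgeR 4.0.16 (R 4.3.3) gave two-sided p-values for CD249+ over CD249−, from a model with the fraction alone, and these were adjusted by Benjamini-Hochberg across the genes that passed the filter. Unscaled totals were 23011391 to 31906414 counts per library, and CPM use totals scaled by TMM. Exon lengths and gene positions are from GENCODE M21 on GRCm38, where 99.0% of the identifiers were found. The fit was tested on simulated data. Alternatives were other scaling, filters, robust fitting, DESeq2 1.42.0, limma-voom (limma 3.58.1), mouse as a block, and leaving out each library or mouse.

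Both fractions came from the same lung, per the design text of the series, and the correlation of deviations from the group means was 0.132 to 0.285 for the libraries of 1 mouse and -0.212 to 0.0515 for those of different mice, so the mouse numbers pair the libraries. The replicates are separate mice. The members and the 14 gene lists were chosen with earlier results of these data known. The rule for naming genes beside the members covers Enpep, Lyz1, the gate genes, the first gene and up to 3 genes with the smallest p of each list, of which not all are printed, and the 10 genes most like Sftpc, Sftpb and Sftpa1. Ctsh and Nkx2-1 were added after their values were seen.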

Additional observations from a re-analysis of the deposited data

Results flagged for a closer look

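Each member was examined in each group of 4 libraries for a value that lies far from the rest, by the gap to the nearest library over the group's whole range. Chance would mark about 1 in 20 such groups if the values were normally distributed. The values used were CPM without logs, which are skewed for genes that vary many-fold, so that rate does not apply here. Such a value was found in 9 of the 16 groups examined, each of them a library of mouse 10. In the CD249+ library of mouse 10 these were Sftpc at 7551 CPM, Sftpb at 479 CPM, Sftpa1 at 1889 CPM and Sftpd at 274 CPM. The same library stood apart for Lamp3 at 136 CPM, Napsa at 189 CPM and Abca3 at 217 CPM. In the CD249− library of mouse 10 these were Sftpb at 23.7 CPM and Lamp3 at 7.14 CPM. All 9 values come from the same 2 libraries, so they are not independent of each other.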

How the results depend on the processing

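Of the 8 members, 5 were called, all higher. The 5 stayed 5 under library size alone, other size factors, no filter, a filter at a mean of 1 CPM and mouse as a replicate block. The count was 4 in the robust fit, where Sftpd lost its call (adjusted p = 0.0611), 3 by DESeq2, which gave no adjusted p for Sftpc and Sftpb, and 1 (Sftpc) by limma-voom. Leaving out 1 library or 1 mouse, it ran from 0 to 6 called, 0 to 5 higher and 0 to 1 lower. Over all alternatives that gave a value, Sftpc was called in 17 of 23, Sftpb in 16 of 23, Sftpa1 and Lamp3 in 17 of 24 and Sftpd in 16 of 24, each higher in all of them, while Napsa and Lyz2 were called in 0 of 24 and Abca3, lower, in 3 of 24. Over all genes, 4468 were called, 2455 higher and 2013 lower. Leaving out 1 library or mouse gave 2978 to 4712 called and 1201 to 2133 lower, and mouse as a replicate block gave 5298 called. Leaving out 1 library or mouse, Napsa ran from -0.0156 (CD249+ of mouse 10 left out) to 1.57, Abca3 from -0.523 to 0.136 and Lyz2 from -0.281 to 0.555 on the log2 scale. Lyz2 turned to -0.221 with the CD249+ library of mouse 10 left out, and to -0.281, or -0.274 with the block, with mouse 10 left out. Abca3 turned to 0.0105 with CD249− of mouse 2 left out, to 0.0914, 0.0959 and 0.0842 with CD249+ of mouse 2, 7 or 8 left out, and to 0.136, 0.0433 and 0.111 with mouse 2, 7 or 8 left out. Of the 10 genes most like the surfactant proteins, 8 stayed at a pseudocount of 5, and 2 were among the 19 genes that reached the tenth place by Spearman correlation, ties included. The cause of these changes was not tested.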
